A study of Homo sapiens with 16 samples.

Results

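The 37 genes of the human mitochondrial genome were examined in stem-cell-derived islet cultures given DMSO or 1 of 7 drugs. They were taken as every row whose gene name began with MT-, 37 of the 62754 genes in the table. This left out the copies of mitochondrial DNA that lie in the nuclear chromosomes, whose names carry no hyphen. The members were 13 mRNA genes, 2 rRNA genes and 22 tRNA genes. Of these, 32 had at least 1 read and 25 passed the filter on low counts and were tested: all 13 mRNAs, both rRNAs and 10 tRNAs. The 12 untested members were all tRNA genes, 5 of them (MT-TN, MT-TG, MT-TR, MT-TH and MT-TL2) with 0 reads in all 16 libraries.

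The cultures were differentiated from HUES8 (written HUES08 in the labels), an established human embryonic stem cell line labelled WT, and all libraries carried batch label 1. There were 8 groups of 2 libraries. Treatment began at stage 5 of the protocol and lasted until 7 days of stage 6 had passed. DMSO, the solvent, was the control. The drugs were colchicine at 10 nM (it blocks tubulin polymerisation), epirizole at 2.5 uM (an anti-inflammatory drug), Ly-294002 at 120 nM (an inhibitor of PI3 kinases), moxifloxacin at 1.1 uM (a fluoroquinolone antibiotic), rottlerin at 1.23 uM (used as a kinase inhibitor), vardenafil at 125 nM (a phosphodiesterase 5 inhibitor) and rimonabant at 125 nM (a cannabinoid receptor antagonist). Structures and doses are unrelated, so the drugs were not compared by structure. The labels do not state whether both libraries of a condition stem from independent differentiation runs. P-values therefore reflect library-to-library spread alone, and that spread could be in part technical.

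Library totals ran from 23294377 to 30701868 reads, and the limit that 0 reads allows (3 reads) was 0.0977 to 0.129 CPM (reads of a gene scaled to 1e+06 reads of the library). Intervals and floors cover counting error only. RNA came from whole cultures. Of 12 markers of endocrine cells, 11 had a median over 1 CPM, but of 10 markers of beta cells only 5 did, and the endocrine markers summed to 93.1 to 474 CPM where 11 liver and gut markers summed to 5817 to 11921 CPM. The endocrine sums also differed between libraries 1 and 2 of each group. They were 291 and 157 CPM with DMSO, 290 and 93.1 with colchicine, 418 and 115 with epirizole and 96.6 and 186 with Ly-294002. With moxifloxacin they were 124 and 474, with rottlerin 346 and 103, with vardenafil 107 and 343 and with rimonabant 143 and 229. The levels below are therefore those of mixed cultures, in which fewer cells of a type and less RNA per cell cannot be told apart.

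Mitochondrial DNA is a small circle that is transcribed from both strands into long precursors running nearly around it. Enzymes cut the tRNAs out of these precursors and thereby free the mRNAs and rRNAs that lie between them. The transcripts called heavy-strand here are 2 rRNAs, 12 of the 13 mRNAs and 14 tRNAs, and the light-strand transcripts are 8 tRNAs and a single mRNA, MT-ND6. All 13 mRNAs encode subunits of the respiratory chain or of ATP synthase, on which beta cells depend to couple glucose to insulin secretion. Strand was taken from the gene annotation (GENCODE v29, GRCh38), in which heavy-strand transcripts are on the plus strand.

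The strand of a transcript can be read from its bases, because the 2 strands of the circle differ in G and C. The first 90 bases of the MT-ND6 and MT-CYB transcripts, neighbours that are read in opposite directions, are printed with every G in capitals. The same is done for whole tRNAs, 2 light-strand (MT-TP and MT-TQ) and 2 heavy-strand (MT-TT and MT-TH). MT-TP and MT-TT had the most reads per length among the tRNA genes of their strands, and MT-TH was at 0 reads. Sequences are from GENCODE v29 on GRCh38, chromosome M, 5′ to 3′ in the sense of the transcript.
MT-ND6, minus strand, chrM:14584-14673: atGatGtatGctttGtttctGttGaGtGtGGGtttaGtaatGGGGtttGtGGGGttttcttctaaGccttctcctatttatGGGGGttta
MT-CYB, plus strand, chrM:14747-14836: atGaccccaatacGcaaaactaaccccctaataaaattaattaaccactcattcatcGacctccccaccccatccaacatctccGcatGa
MT-TP, minus strand, chrM:15956-16023: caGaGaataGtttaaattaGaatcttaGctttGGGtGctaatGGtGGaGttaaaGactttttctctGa
MT-TQ, minus strand, chrM:4329-4400: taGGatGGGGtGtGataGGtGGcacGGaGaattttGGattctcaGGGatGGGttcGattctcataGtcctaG
MT-TT, plus strand, chrM:15888-15953: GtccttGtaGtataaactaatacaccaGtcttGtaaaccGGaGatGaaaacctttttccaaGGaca
MT-TH, plus strand, chrM:12138-12206: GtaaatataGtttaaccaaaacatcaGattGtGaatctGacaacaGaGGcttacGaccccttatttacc

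Over the whole gene, MT-ND6 was 35.6% G and 7% C. The 12 heavy-strand mRNAs were 6.3 to 16.2% G and 29.5 to 36% C. The light-strand tRNA genes held 23.5 to 36.1% G and the heavy-strand ones 10.3 to 19.1% G. The GC content of MT-ND6, 42.67%, lay within the 39.61 to 47.7% of the heavy-strand mRNAs, so G and C set the strands apart but their sum did not.

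Mitochondrial genome genes took 1.43 to 2.84% of the reads of a library. The 12 heavy-strand mRNAs held 98.1% of these reads over the 16 libraries, MT-ND6 1.41%, the 2 rRNAs 0.249%, the light-strand tRNAs 0.127% and the heavy-strand tRNAs 0.0764%. The libraries had been depleted of ribosomal RNA with a kit, and the low level of the mitochondrial rRNAs stands beside that step. Levels between genes are compared below as CPM per kb of gene, scaled by trimmed mean of M values (TMM).

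Among the mRNAs, MT-CO1, a catalytic core subunit of complex IV (cytochrome c oxidase), was the most abundant per length, with a median of 4215 CPM per kb over the 16 libraries and a range of 2955 to 4913. MT-CO3 (2676) and MT-CO2 (2499.7), the other core subunits of that complex, and MT-ND4 (2254), a complex I subunit, followed by median. MT-ND1, MT-CYB of complex III and MT-ATP6 of ATP synthase lay close together at 1632, 1505 and 1491, and their ranges overlapped. MT-ND6, the light-strand mRNA and also a complex I subunit, had a median of 573 (range 285 to 1099.7), beside MT-ND4L at 565 (253 to 862), so these neighbours in the order did not differ beyond their spread. MT-ATP8, the shortest mRNA gene with 207 bases, was lowest at 384 (132 to 766). By gene and per length, MT-ND6 was thus not the scarcest, as heavy-strand MT-ATP8 lay below it in median level. MT-ATP8 is, however, part of the same mRNA as MT-ATP6 (1491), and MT-ND4L overlaps MT-ND4 (2254). The order is therefore one of genes, not of RNA molecules.

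**Figure D1:**
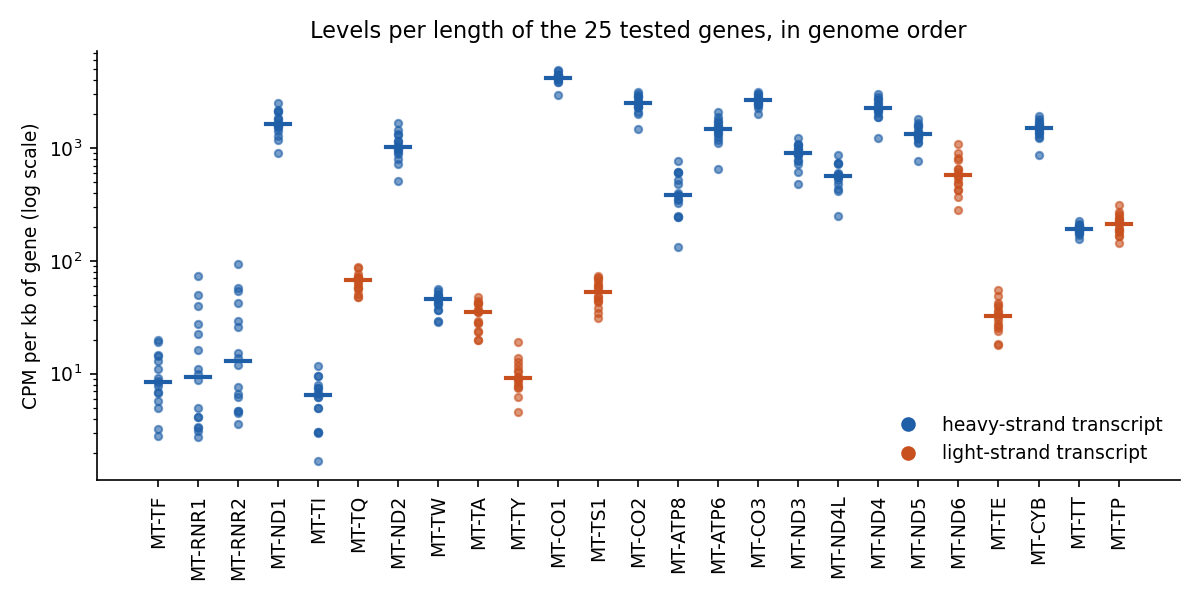
Levels of the 25 tested mitochondrial genome genes in genome order, in TMM-normalised CPM per kb of gene on a log axis, with 1 point per library (16) and a line at the median. The medians of the mRNAs lie above those of the tRNAs, though points overlap, MT-ATP8 going down to 132 and MT-TP up to 312. MT-CO1 is highest at a median of 4215, and the 2 rRNAs spread most widely between libraries.

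The share of reads on the mitochondrial genome was highest in the control cultures. It was 2.66 and 2.84% in DMSO 1 and 2, and each of the 14 drug-treated libraries lay below both. The values were 1.83 and 2.34% with colchicine, 2.26 and 2.51% with epirizole, 2.34 and 2.44% with Ly-294002, and 2.15 and 2.06% with moxifloxacin. They were 2.00 and 1.96% with rottlerin, 2.14 and 2.52% with vardenafil, and 2.19 and 1.43% with rimonabant. Rimonabant 2 was the lowest library, while Rimonabant 1 lay within the range of the other drugs. All 7 comparisons share the same 2 DMSO libraries, so they are not 7 separate observations. An exact permutation test of 2 libraries against 2 cannot pass 0.05, and no test was made on this summed value.

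**Figure D2:**
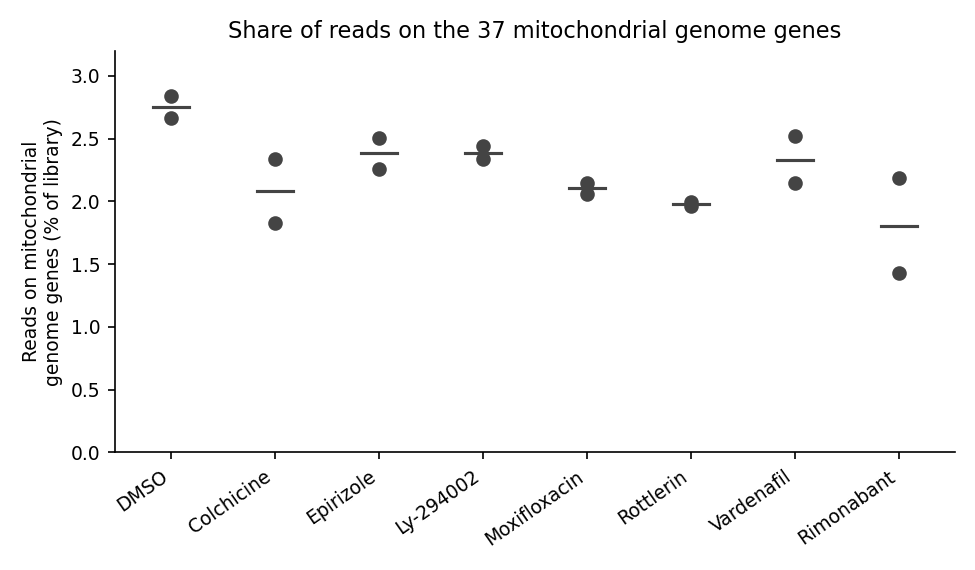
Reads on the 37 mitochondrial genome genes as a percentage of all counted reads, with 1 point per library and a line at the mean of the 2 libraries of a group. Both DMSO libraries (2.66 and 2.84%) lie above all 14 treated libraries, and Rimonabant 2 is lowest at 1.43%.

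Each of the 13 mRNAs had a fitted level below DMSO in each of the 7 comparisons (edgeR quasi-likelihood fit on all 16 libraries). The median log2 change of the 13 was -0.57 with colchicine, -0.24 with epirizole, -0.25 with Ly-294002 and -0.49 with moxifloxacin. It was -0.64 with rottlerin, -0.29 with vardenafil and -0.79 with rimonabant, where the median over all 24515 tested genes was between -0.01 and 0.00 in all 7. Both treated libraries lay below both DMSO libraries for all 13 mRNAs with Ly-294002, moxifloxacin, rottlerin and rimonabant, against 19.5%, 24.4%, 24.4% and 26.4% of all tested genes. With colchicine and epirizole this held for 12 of 13 (25.8% and 19% of all genes), the exceptions being MT-CO3 and MT-ATP8. With vardenafil it held for 11 of 13 (20% of all genes), MT-ND1 and MT-ND6 overlapping DMSO.

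Few of these differences passed the test of single genes. With rimonabant 4 of the 25 tested members were lower at an adjusted p under 0.05 (Benjamini-Hochberg over all genes), all of them mRNAs, where 2.77% of all tested genes were called lower and 7.8% in either direction. They were MT-ND6, MT-ND2 and MT-ND5 of complex I and MT-ATP8 of ATP synthase, so 3 heavy-strand transcripts and the light-strand one. No member was called in the other 6 comparisons by edgeR, where 0.0693% of all genes were called lower with colchicine (0.196% in either direction) and 0% with each of the other 5 (0.00816% in either direction with rottlerin). At an unadjusted p under 0.05, 10 of the 25 members were lower with colchicine (8.52% of all genes), 1 with epirizole (2.17%), 1 with Ly-294002 (2.25%) and 9 with moxifloxacin (5.85%). The same count was 16 with rottlerin (6.48%), 0 with vardenafil (2.45%) and 17 with rimonabant (11.3%). DESeq2 called 4 members with colchicine (3.78% of all genes called), 6 with rottlerin (2.77%) and 13 with rimonabant (12%). It called 0 members with moxifloxacin (0.253%), vardenafil (0.00816%), epirizole (0%) and Ly-294002 (0%). In edgeR without the filter on low counts, 14 members were called with colchicine (3.51% of all genes), 4 with epirizole (0.0738%), 6 with Ly-294002 (0.378%), 12 with moxifloxacin (1.66%), 15 with rottlerin (2.41%), 2 with vardenafil (0.253%) and 16 with rimonabant (6.01%). The DESeq2 and unfiltered counts hold calls in either direction. In the unfiltered fit the member with the lowest adjusted p was MT-RNR2, an rRNA, with colchicine, epirizole and Ly-294002. Its log2 changes in the filtered edgeR fit were above DMSO there (1.60, 1.21 and 2.56). The number of members past the threshold thus depended on the tool and the filter, while the direction of the mRNAs did not. A joint edgeR test of the 7 drugs called 0 members (0.00408% of all genes), with 7 called by DESeq2 (4.96% of all genes), and the lowest unadjusted joint p of a member was 0.00611, for MT-TP.

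The number of rimonabant calls, of members and of all other genes, changed with the libraries kept. Without Rimonabant 1, 13 members were called (14.8% of all genes), and without Rimonabant 2, DMSO 1 or DMSO 2 no gene of the whole table was called (0%). The median log2 change of the 13 mRNAs was -1.26 without Rimonabant 1 and -0.44 without Rimonabant 2. Its size thus depended on which rimonabant library was kept and its sign did not. Without DMSO 1 it was -0.86 and without DMSO 2 -0.71, against -0.79 with all libraries. A fit with 1 library in a group has fewer libraries to test with, so a lost call there need not mean a smaller change. With an offset for the GC content of transcripts no gene was called for rimonabant either (0%), and the median of the 13 mRNAs was -0.66.

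MT-ND6 is the only mRNA of its strand. It lay at 432 and 577 CPM in DMSO 1 and 2, at 193 and 301 with colchicine, 300.2 and 411 with epirizole, 323 and 346 with Ly-294002, 282 and 255 with moxifloxacin, 225 and 224 with rottlerin, 340.2 and 478 with vardenafil and 260.4 and 149.9 with rimonabant. Only Vardenafil 2 reached the DMSO range. With rimonabant MT-ND6 fell by 1.30 on the log2 scale (SE 0.30, edgeR adjusted p = 0.0349), to 40.7% of its DMSO level. The log2 changes were -1.17 (SE 0.30, edgeR adjusted p = 0.129) with rottlerin, -1.03 (adjusted p = 0.127) with colchicine and -0.91 (adjusted p = 0.327) with moxifloxacin. None of these passed the threshold in the filtered edgeR fit. The DESeq2 adjusted p of MT-ND6 was 0.0175 with rottlerin, 0.0354 with colchicine and 0.175 with moxifloxacin.

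MT-ND2, a heavy-strand complex I subunit, lay at 1499 and 1758 CPM with DMSO, 748 and 1029 with colchicine, 1069.7 and 1356 with epirizole, 1218 and 1198 with Ly-294002, 1071 and 922 with moxifloxacin, 844 and 964 with rottlerin, 1129.7 and 1399 with vardenafil and 1012 and 533 with rimonabant. Every treated library lay below both controls. MT-ND2 fell by 1.08 with rimonabant on the log2 scale (SE 0.27, edgeR adjusted p = 0.0422). Its changes with colchicine and rottlerin were -0.87 (adjusted p = 0.138) and -0.85 (adjusted p = 0.186).

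MT-ND5, the longest mRNA gene and also of complex I, lay at 3032 and 3278 CPM with DMSO, 2063 and 2446 with colchicine, 2507 and 2916 with epirizole, 2561 and 2785 with Ly-294002, 2367 and 2297 with moxifloxacin, 2028 and 2172 with rottlerin, 2299.9 and 2870.1 with vardenafil and 2336 and 1409.8 with rimonabant. The groups did not overlap with DMSO in any comparison. MT-ND5 fell by 0.75 with rimonabant on the log2 scale (SE 0.19, edgeR adjusted p = 0.0362).

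MT-ATP8, a small subunit of ATP synthase, lay at 126 and 159 CPM with DMSO, 51.1 and 80.2 with colchicine, 83.2 and 126 with epirizole, 107 and 125 with Ly-294002, 71.6 and 74.0 with moxifloxacin, 51.2 and 51.3 with rottlerin, 78.8 and 99.6 with vardenafil and 68.3 and 27.4 with rimonabant. Its lowest library, Rimonabant 2, held 838 reads of the gene. MT-ATP8 fell by 1.58 with rimonabant on the log2 scale (SE 0.39, edgeR adjusted p = 0.0437), the largest fitted decrease among the mRNAs in that comparison. Its log2 change with rottlerin was -1.47 (SE 0.39, adjusted p = 0.138).

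The 2 other markers of the heavy strand stood at the opposite end of the order or in its middle. MT-CO1 lay at 7449 and 7576 CPM with DMSO, 5919 and 6931 with colchicine, 6359 and 6851 with epirizole, 6758 and 6795 with Ly-294002, 6422 and 5925 with moxifloxacin, 6323 and 6321 with rottlerin, 6292 and 6950.1 with vardenafil and 6576 and 4556 with rimonabant. Apart from Rimonabant 2 the treated libraries lay between 5919 and 6950.1 CPM, a narrow band below both controls. The log2 change of MT-CO1 ran from -0.15 (SE 0.13) with Ly-294002 to -0.43 (SE 0.13, edgeR adjusted p = 0.0574) with rimonabant.

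MT-ND4 lay at 3910.2 and 4195 CPM with DMSO, 2608 and 3149 with colchicine, 3197 and 3739.6 with epirizole, 3395 and 3466 with Ly-294002, 3043 and 2833 with moxifloxacin, 2595 and 2981 with rottlerin, 2937 and 3656 with vardenafil and 3063 and 1705 with rimonabant. No treated library reached the controls. Its log2 change was -0.77 (SE 0.22, edgeR adjusted p = 0.0561) with rimonabant, -0.54 with rottlerin and -0.49 with colchicine. None of these passed the threshold in the filtered edgeR fit.

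**Figure D3:**
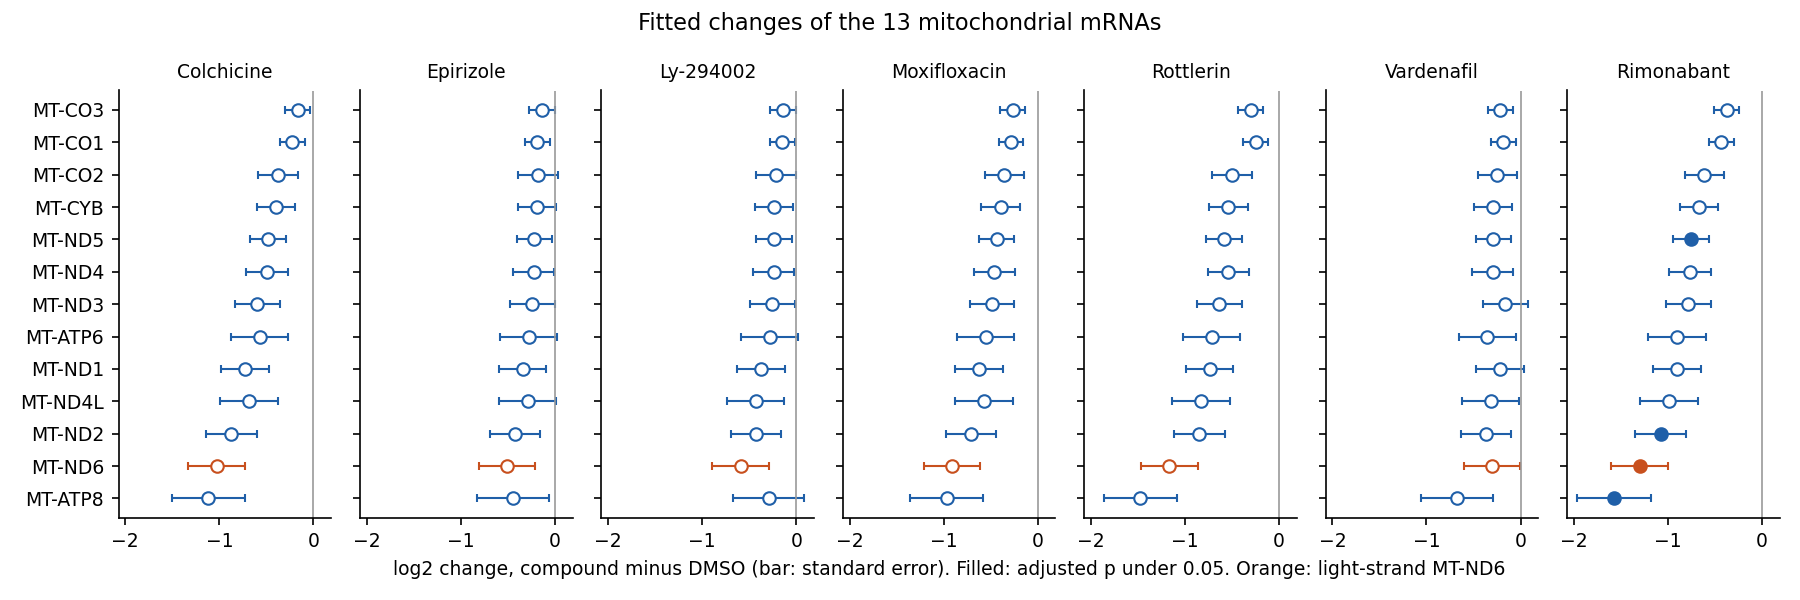
Fitted log2 change (drug minus DMSO, bar: standard error) of the 13 mitochondrial mRNAs in the 7 comparisons, ordered by their mean change, with MT-ND6 in orange and calls at an adjusted p under 0.05 filled. All points lie below 0, and MT-CO3 and MT-CO1 lie nearest to it while MT-ATP8, MT-ND6 and MT-ND2 lie farthest in most panels.

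The order of the mRNAs was much the same from drug to drug, as values that share their controls. MT-CO3 or MT-CO1 was the least changed in 6 of the 7 comparisons, and MT-ND3 with vardenafil. MT-ATP8 had the lowest change with colchicine, moxifloxacin, rottlerin, vardenafil and rimonabant, and MT-ND6 with epirizole and Ly-294002. MT-ND6 ranked 2 from the lowest of 13 with colchicine, moxifloxacin, rottlerin and rimonabant, and 5 with vardenafil. The light-strand mRNA was therefore low in the order without standing outside the heavy-strand range in 5 of the 7 comparisons. Over the 13 genes the change ran with gene length (Spearman rho 0.32 to 0.59 over the comparisons) and with GC content (0.53 to 0.71), longer and more GC-rich genes being less changed. These are descriptions across 13 genes of the same molecule, with no test.

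By respiratory complex, the 3 mRNAs of complex IV had median log2 changes of -0.23 with colchicine, -0.30 with rottlerin and -0.43 with rimonabant, where the 7 mRNAs of complex I had -0.69, -0.74 and -0.91. Complex IV mRNAs accordingly took 44.2 and 42.1% of the mitochondrial mRNA reads in DMSO 1 and 2, against 47.7 and 52.9% with rimonabant, 50.3 and 47.9% with rottlerin and 49.6 and 48.3% with colchicine. Complex I mRNAs took 42.9 and 44.8% with DMSO and 39.7 and 36.3% with rimonabant. The complex IV share was above both DMSO libraries in both libraries of 5 drugs, and overlapped DMSO with epirizole and vardenafil.

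The ratio of light-strand to heavy-strand mRNA was taken as the log2 of MT-ND6 reads over the summed reads of the 12 heavy-strand mRNAs. It was -5.94 and -5.61 in DMSO 1 and 2. With colchicine it was -6.56 and -6.24, with rottlerin -6.40 and -6.49, with rimonabant -6.37 and -6.48, with moxifloxacin -6.24 and -6.29 and with Ly-294002 -6.15 and -6.10, all below both controls. With epirizole (-6.19 and -5.93) and vardenafil (-5.95 and -5.70) the libraries overlapped DMSO. As a share of mitochondrial mRNA reads, MT-ND6 was 1.60 and 2.01% with DMSO and 1.19 and 1.11% with rimonabant. The 2 DMSO libraries differed from each other, so the size of each difference depended on which control was kept. For vardenafil its sign did too (-0.22 without DMSO 1 and 0.11 without DMSO 2).

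A light-to-heavy ratio was also taken over the tRNA genes. Reads of the 8 light-strand tRNA genes over those of the 14 heavy-strand ones had a log2 of 0.80 and 1.22 in DMSO 1 and 2. Both libraries lay below both controls with colchicine (0.30 and 0.52), rottlerin (0.58 and 0.48), moxifloxacin (0.64 and 0.54) and rimonabant (0.61 and 0.78). Epirizole (0.75 and 0.89), Ly-294002 (0.61 and 0.99) and vardenafil (0.89 and 1.00) overlapped DMSO. The sums rest on 512 to 1037 light-strand and 372 to 573 heavy-strand reads a library. They rest largely on 1 gene per strand. Over all libraries MT-TP had 6433 reads and the next light-strand gene, MT-TQ, 2071, while MT-TT had 5603 and the next heavy-strand gene, MT-TW, 1315. Gene by gene, light-strand and heavy-strand median log2 changes were alike with rottlerin (-0.65 and -0.64) and rimonabant (-0.62 and -0.66). They differed more with colchicine (-0.62 and -0.52), moxifloxacin (-0.58 and -0.24) and Ly-294002 (-0.43 and -0.14). With epirizole (-0.25 and -0.34) the heavy-strand median was the lower one, and with vardenafil they were -0.21 and -0.14. Neither ratio was tested.

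**Figure D4:**
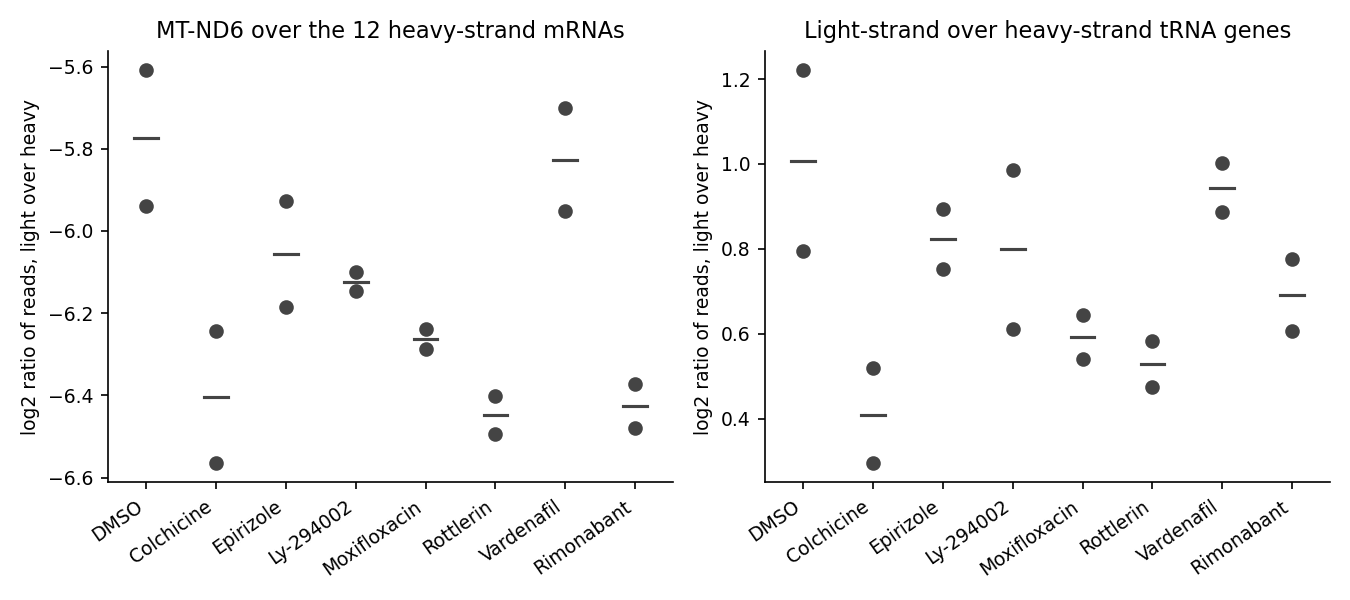
Log2 ratio of light-strand to heavy-strand reads in each library for mRNAs (left, MT-ND6 over the 12 heavy-strand mRNAs) and tRNA genes (right), with a line at the mean of the 2 libraries of a group. DMSO 2 is highest in both panels (-5.61 and 1.22) and Colchicine 1 is lowest in both (-6.56 and 0.30).

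MT-ATP8 and MT-ATP6 allow a comparison within a single RNA, because they are translated from the same mRNA and their coding sequences overlap. The last 90 bases of MT-ATP8 and the first 90 of MT-ATP6 are printed with the 46 shared bases in capitals, and the last and first 60 bases of MT-ND4L and MT-ND4, the other overlapping pair, with their 7 shared bases in capitals.
MT-ATP8, plus strand, chrM:8483-8572: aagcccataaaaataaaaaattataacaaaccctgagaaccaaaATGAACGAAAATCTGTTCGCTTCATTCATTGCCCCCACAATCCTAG
MT-ATP6, plus strand, chrM:8527-8616: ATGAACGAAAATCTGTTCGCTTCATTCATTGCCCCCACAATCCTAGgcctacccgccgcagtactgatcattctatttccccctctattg
MT-ND4L, plus strand, chrM:10707-10766: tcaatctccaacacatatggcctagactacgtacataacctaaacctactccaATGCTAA
MT-ND4, plus strand, chrM:10760-10819: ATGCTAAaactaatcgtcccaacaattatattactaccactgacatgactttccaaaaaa

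The shared bases make up 22.2% of MT-ATP8 and 2.36% of MT-ND4L, and how reads on both genes were counted is not given in the sources used here. Although both lie on the same RNA, the log2 ratio of MT-ATP8 to MT-ATP6 reads was not constant. It was -3.36 and -3.16 in DMSO 1 and 2, -3.97 and -4.05 with rottlerin, -3.88 and -4.01 with rimonabant, -3.89 and -3.73 with colchicine, -3.70 and -3.64 with moxifloxacin and -3.61 and -3.54 with vardenafil, all below both controls. With epirizole (-3.62 and -3.26) and Ly-294002 (-3.33 and -3.20) it overlapped DMSO. The log2 ratio of MT-ND4L to MT-ND4 ran over a narrower range, from -4.03 in DMSO 2 to -4.51 in Rimonabant 2.

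Libraries also differed in how their nuclear genes ran with GC content, and the mitochondrial mRNAs moved with this. The GC slope was taken from the log2 deviation of each gene from its mean over libraries. It was the median deviation over the most GC-rich 10% of nuclear genes minus that over the most GC-poor 10%. It was lowest in DMSO 1 and 2, at -0.34 and -0.40, and highest in Rimonabant 2, at 0.78, against 0.17 in Rimonabant 1. Over the 16 libraries the log2 level of MT-ND4 had a Pearson r of -0.96 and a Spearman rho of -0.86 with the slope (permutation tests adjusted over 6 relations, p = 6e-05 and 0.00018). MT-CO1 had -0.92 and -0.72 (permutation p = 6e-05 and 0.00502), and MT-ND6 -0.87 and -0.85 (permutation p = 6e-05 and 0.00018). These p-values take the 16 libraries as separate, though they form 8 groups of 2 libraries, so they can be too small. Without Rimonabant 2 and DMSO 2, the 2 libraries farthest from the median slope, r was -0.87 for MT-ND4, -0.71 for MT-CO1 and -0.79 for MT-ND6. Over the 14 treated libraries alone it was -0.95, -0.89 and -0.82. The relation was also negative within the 8 libraries of each replicate number, the nearest to 0 being -0.79, for MT-CO1 in replicate 1.

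The other 3 of the 6 relations set the same genes against a score of the endocrine markers (their mean log2 level). Pearson r was -0.17 for MT-CO1, -0.13 for MT-ND4 and -0.07 for MT-ND6, with adjusted permutation p from 0.771 to 0.783. The endocrine score overlapped DMSO in all 7 drug groups. Since treatment and GC slope moved together, with all 14 treated libraries above both controls in slope, drug and slope cannot be told apart here.

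**Figure D5:**
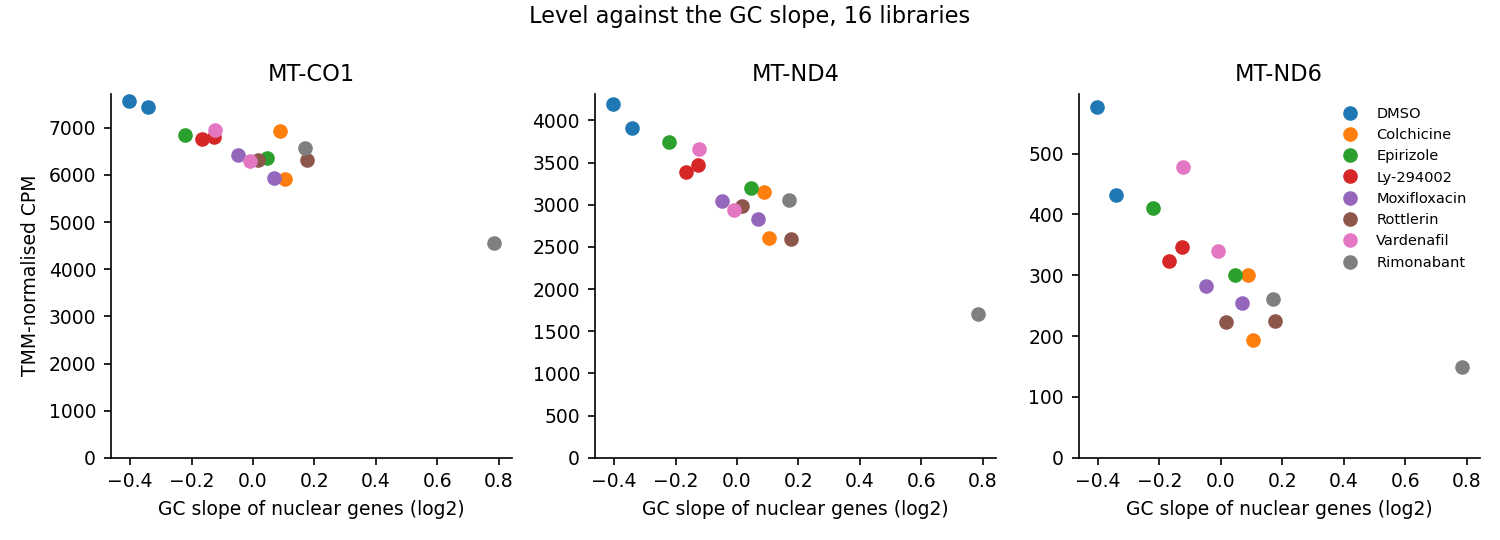
TMM-normalised CPM of MT-CO1, MT-ND4 and MT-ND6 against the GC slope of nuclear genes (log2, most GC-rich minus most GC-poor 10%), 1 point per library coloured by group. Levels fall from the DMSO libraries at slopes of -0.34 and -0.40 to Rimonabant 2 at 0.78.

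Markers of other cells moved with some of these groups too. The 10 mesenchyme markers summed to 2098 and 2207 CPM in the DMSO libraries, and to 1369 to 1582 with colchicine, 993 to 1695 with moxifloxacin, 1257 to 1478 with rottlerin and 1403 to 2042 with vardenafil. They summed to 1669 to 2475 with epirizole, 1898 to 2734 with Ly-294002 and 1958 to 2163 with rimonabant, which overlap DMSO. The 11 liver and gut markers summed to 6787 to 8443 CPM with DMSO, 9143 to 9985 with moxifloxacin and 8726 to 8996 with epirizole, and overlapped DMSO with colchicine (8117 to 10157) and rimonabant (5817 to 9808). All markers of these lists were detected, and their part in the mitochondrial levels was not tested.

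The mitochondrial rRNAs, MT-RNR1 of the small and MT-RNR2 of the large subunit of the mitochondrial ribosome, behaved unlike the mRNAs. MT-RNR2 lay at 21.7 and 10.2 CPM with DMSO, 6.95 and 89.1 with colchicine, 7.27 and 66.2 with epirizole, 40.7 and 147 with Ly-294002, 5.53 and 18.6 with moxifloxacin, 85.1 and 7.35 with rottlerin, 9.64 and 23.6 with vardenafil and 11.9 and 45.4 with rimonabant. The 2 libraries of a group thus differed widely, by more than 10-fold with colchicine and rottlerin. MT-RNR1 ran from 69 to 1778 reads and MT-RNR2 from 145 to 3745 reads a library, 26.5-fold and 26.6-fold in normalised level.

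The 2 rRNAs were high in the same libraries, MT-RNR2 having 1.77 to 3.05 times the reads of MT-RNR1. Both Ly-294002 libraries lay above both controls for both rRNAs (19.5% of all genes did so), with log2 changes of 2.68 for MT-RNR1 and 2.56 for MT-RNR2, but SEs of 1.74 and 1.66 and an edgeR adjusted p of 0.969 for each. In the other 6 comparisons the groups overlapped, and for 6 of the 7 drugs leaving out 1 library turned the sign of the MT-RNR2 change. What was measured is the rRNA left after depletion, so these values give no level of the mitochondrial ribosome.

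Of the 22 tRNA genes 10 were tested. The most abundant per length were light-strand MT-TP (tRNA for proline, median 214 CPM per kb) and heavy-strand MT-TT (tRNA for threonine, 193), which face each other at the end of the coding region. MT-TP lay at 18.6 and 21.2 CPM with DMSO, 9.76 and 11.4 with colchicine, 12.5 and 15.8 with epirizole, 15.9 and 12.998 with Ly-294002, 16.01 and 12.2 with moxifloxacin, 11.4 and 14.1 with rottlerin, 17.8 and 17.2 with vardenafil and 15.0 and 13.1 with rimonabant. Every treated library lay below both controls. The log2 change of MT-TP with colchicine was -0.91 (SE 0.18, edgeR adjusted p = 0.0508), just short of the threshold. It passed in edgeR with DESeq2 size factors in place of TMM (adjusted p = 0.0475), and over all alternatives its edgeR or DESeq2 adjusted p ran from 0.000506 to 0.477.

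MT-TT showed no such shift. It lay at 15.1 and 12.2 CPM with DMSO, 12.8 and 14.01 with colchicine, 12.4 and 11.7 with epirizole, 13.2 and 10.3 with Ly-294002, 13.4 and 13.8 with moxifloxacin, 12.9 and 12.7 with rottlerin, 11.8 and 12.2 with vardenafil and 13.5 and 11.1 with rimonabant. All 7 groups overlapped DMSO, and its log2 changes ran from -0.21 (SE 0.16) with Ly-294002 to 0.00 (SE 0.16) with moxifloxacin. These neighbours, printed above, thus had values that ran with the mRNAs in one case and not in the other, though a difference between them was not tested.

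Over all tested tRNAs the 6 light-strand genes had median log2 changes of -0.62 with colchicine, -0.58 with moxifloxacin, -0.65 with rottlerin and -0.62 with rimonabant. The 4 heavy-strand ones had -0.52, -0.24, -0.64 and -0.66, and among them MT-TI and MT-TF had medians of only 13 and 15 reads a library. None of the 10 was called by edgeR in any of the 7 comparisons, at an adjusted p of 0.0508 or more. MT-TW, a heavy-strand tRNA gene with 57 to 106 reads, lay above both controls in both vardenafil libraries (19.4% of all genes did so), with a log2 change of 0.33 (SE 0.33). MT-TA, a light-strand tRNA gene, did so with Ly-294002, with a log2 change of 0.19 (SE 0.34).

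The tRNA genes are described here by their distance to other genes, with no test. The 9 tRNA genes with at least 324 bases between them and the next gene of the same strand on 1 side had medians of 15 to 414 reads a library. The 3 with a gap of 70 to 72 bases (MT-TI, MT-TM and MT-TD) had medians of 1 to 13 reads. The 10 that lie within 31 bases of genes of the same strand on both sides had at most 4 reads in any library, and among them are the 5 at 0. Counted without regard to strand, 7 of the 9 have neighbours within 12 bases on both sides, as MT-TQ does, which overlaps MT-TI by 3 bases and still had a median of 122 reads. Mature tRNAs are mostly too short to be captured in such libraries. Which RNAs the reads came from was not tested. The strand setting of the count is not given in the sources used here.

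Copies of mitochondrial DNA in the nuclear chromosomes can take reads from the members or lend them. The table held 404 such genes, of which 162 had reads, and all of them together had 0.78% as many reads as the members. The most read was MTATP6P1 on chromosome 1 (633696 to 634376, plus strand, GRCh38), with 22968 reads over all libraries and 10 differences from MT-ATP6 over 681 aligned bases (98.53% identity). MTCO1P12, on the same chromosome and strand (631074 to 632616), had 15107 reads and was 98.64% identical to MT-CO1, and MTND2P28 (629640 to 630683) had 6182 reads and 98.37% identity to MT-ND2. With rimonabant 4 of the 50 tested copies were called lower (2.77% of all genes, and 0 copies with the GC offset or without Rimonabant 2, DMSO 1 or DMSO 2), among them MTATP6P1, which fell by 1.29 on the log2 scale (SE 0.32, edgeR adjusted p = 0.0423) where MT-ATP6 had -0.91 (adjusted p = 0.0997). Reads of a copy and its source cannot be told apart where the 2 are identical, so both are uncertain by an amount that was not measured. The 0.78% does not bound it, because the treatment of multiply mapped reads is not given.

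Nuclear genes that make, cut and use these transcripts had few calls, all of them with rimonabant, where 5.03% of all genes were called higher and 2.77% lower. Every one of these nuclear calls was lost with the GC offset and without Rimonabant 2, DMSO 1 or DMSO 2, since no gene was called in those fits. Of 20 genes of mitochondrial transcription and DNA upkeep, all tested, POLRMT, the mitochondrial RNA polymerase, rose with rimonabant by 0.82 on the log2 scale (SE 0.20, edgeR adjusted p = 0.0275), from 18.1 ± 0.674 to 32.0 ± 12.2 CPM (SD, n = 2). SSBP1, the single-strand DNA binding protein of mitochondria, fell by 0.34 (SE 0.09, adjusted p = 0.0382). The list's median changes were -0.07 to 0.01 over the 7 drugs. TFAM, which packages mitochondrial DNA and starts its transcription, lay at 48.6 to 71.1 CPM and was not called in any comparison. None of the 20 was called with the other 6 drugs.

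Of 28 genes of mitochondrial RNA processing and decay, 27 were found in the table and tested. With rimonabant 6 were called higher and 0 lower (5.03% and 2.77% of all genes), among them FASTK (0.86, SE 0.16, edgeR adjusted p = 0.012), a mitochondrial RNA-binding protein linked to MT-ND6 mRNA, and HSD17B10 (0.60, adjusted p = 0.0309), a subunit of mitochondrial RNase P. PTCD1 (0.60) and TBRG4 (0.59), further RNA-binding proteins of mitochondria, were also among them. LRPPRC, which stabilises heavy-strand mRNAs, was the most abundant of the list, at 228 to 319 CPM, and was not called. The list's median stayed between -0.05 and 0.03 in all 7 comparisons, and none of its genes was called with the other 6 drugs.

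The nuclear partners of the mitochondrial proteins had median changes above 0 in all 7 comparisons, where the 13 mRNAs had medians below 0. Of 81 tested nuclear subunits of the respiratory chain and ATP synthase, 10 rose and 2 fell with rimonabant (5.03% and 2.77% of all genes), with a median log2 change of 0.05. UQCRC1 of complex III (0.56, edgeR adjusted p = 0.0137) and ATP5F1D of ATP synthase (1.13, adjusted p = 0.0143) rose, and NDUFA5 of complex I fell by 0.57 (adjusted p = 0.012). Their median changes with the other 6 drugs were 0.03 to 0.17, and none of the 81 was called there. With colchicine 64 of 81 lay above DMSO (11970 of all 24515 tested genes), and with rottlerin 60 of 81 (12107 of 24515). The count was 59 with moxifloxacin, 58 with epirizole and 54 with vardenafil. It was lower with rimonabant (47) and Ly-294002 (46), and 12093 to 12344 of all genes lay above DMSO with these 5 drugs. The 13 mitochondrial mRNAs were all below with each of the 7 drugs. Among 77 tested mitochondrial ribosomal proteins 5 rose and 3 fell with rimonabant (7.8% of all genes called either way), and the median was 0.01. ESRRA, a regulator of mitochondrial biogenesis, rose by 0.54 (adjusted p = 0.0367) and OMA1, a protease of the inner membrane, fell by 0.60 (adjusted p = 0.0396), each the single call of its list of 10 and 13 genes.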

How the data were processed

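Total RNA of 16 cultures was depleted of ribosomal RNA and prepared with KAPA's RNA HyperPrep reagents (RiboErase) for paired-end sequencing, per the labels' protocols. The same protocols name FastQC 0.11.8, Trimmomatic 0.38, STAR 2.7.1a, Picard 2.20.4, StringTie 2.0.4 and featureCounts 1.6.0 or HTSeq, and the submitters' processing notes name HTSeq and GRCh38. The strand setting, the annotation release and the treatment of multiply mapped reads are not given in the sources used here. The deposited values were raw counts per gene, not normalised by the authors.

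Counts were fitted in R 4.3.3 with edgeR 4.0.16 (filterByExpr on the 8 groups, TMM, robust quasi-likelihood F test, two-sided, 1 coefficient per group, 8 residual degrees of freedom). P-values were adjusted across the 24515 genes tested, and 0.05 was the threshold. Levels are TMM-normalised CPM of each library. DESeq2 1.42.0 was an alternative, as were other scalings and filters, a replicate block, a GC offset in 25 bins of transcript GC (known for 95.26% of tested genes) and leaving out each library. The fit was tested on simulated data. Ratios and shares were computed from counts. GC slopes used 17023 nuclear genes over 1 CPM, and permutation tests drew 1e+05 orders. Values are given for MT-CO1, MT-ND4 and MT-ND6, for each member called and for the most abundant member per length of each class. In the other lists the text names up to 3 called genes by p, and TBRG4 by its joint p, while TFAM and LRPPRC were chosen after their values were seen. Members and lists were chosen with earlier results of these data known. Some members had too few reads to test.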

Additional observations from a re-analysis of the deposited data

How the results depend on the processing

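The 13 mRNAs lay below DMSO in all comparisons under every scaling, filter, GC and block setting run, and in each fit without 1 library except that MT-CO3 did not for colchicine without Colchicine 1, where 12 of 13 did. Among the other values recomputed, the vardenafil strand ratio and uncalled changes of MT-TT and MT-RNR2 changed sign. Counts of members called, in either direction, moved. Without the filter on low counts they were 14 for colchicine, 4 for epirizole, 6 for Ly-294002, 12 for moxifloxacin, 15 for rottlerin, 2 for vardenafil, 16 for rimonabant and 16 in the joint test (6.76% of all genes in the last), and the cause was not tested. Adjusted p there reached 3.27e-58, for MT-RNR2 with Ly-294002, whose 2 libraries lay at 40.7 and 147 CPM. With DESeq2 they were 4, 6 and 13 for colchicine, rottlerin and rimonabant and 7 in the joint test. DESeq2 size factors gave 1 for colchicine (0.612% of all genes). The 4 libraries alone gave 1 for rottlerin (0.00454%) and 0 for rimonabant (0.19%). The GC offset gave 0 for rimonabant (0%).

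Leaving out 1 library at a time gave 0 to 13 calls for rimonabant (0 to 14.8% of all genes) and 0 to 8 in the joint test (8, and 1.54% of all genes, without Rimonabant 1), and 0 in the other comparisons. The median log2 change of the 13 mRNAs then ranged from -0.82 to -0.35 for colchicine, -0.37 to -0.12 for epirizole, -0.33 to -0.18 for Ly-294002, -0.56 to -0.40 for moxifloxacin, -0.71 to -0.55 for rottlerin, -0.45 to -0.14 for vardenafil and -1.26 to -0.44 for rimonabant. The strand ratio differed from DMSO by -0.79 to -0.46, -0.45 to -0.12, -0.51 to -0.18, -0.65 to -0.32, -0.84 to -0.51, -0.22 to 0.11 and -0.82 to -0.49 in the same order. The share of reads differed by -0.92 to -0.42, -0.50 to -0.24, -0.46 to -0.27, -0.74 to -0.56, -0.86 to -0.68, -0.61 to -0.23 and -1.33 to -0.57 percentage points. A lone library left in a group was assumed to vary like the others.

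The replicate block left 1 member called for rimonabant (4.45% of all genes), and 0 with the GC offset added (0%). Replicate numbers did not pair the libraries: deviations of same-numbered libraries correlated from -0.53 to 0.44 over 28 pairs of groups (median -0.05).

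Uncalled log2 changes of MT-TT turned positive with the GC offset for colchicine (0.16), rottlerin (0.086) and rimonabant (0.15), and with the block added they were 0.17, 0.090 and 0.15. Without DMSO 1 they were 0.15, 0.080 and 0.016. Without 1 library, MT-TT ranged from -0.15 to 0.15 for colchicine, -0.14 to 0.17 for moxifloxacin, -0.22 to 0.08 for rottlerin and -0.29 to 0.02 for rimonabant. The MT-RNR2 change for vardenafil was -0.38 with the replicate block and -0.32 with the GC offset added, and without 1 library MT-RNR2 ranged from -1.18 to 2.50 for colchicine, -1.12 to 2.07 for epirizole, -1.52 to 0.25 for moxifloxacin, -1.10 to 2.43 for rottlerin, -0.71 to 0.70 for vardenafil and -0.42 to 1.52 for rimonabant.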
